A study of Homo sapiens with 12 samples.

Results

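The 31 genes described here are direct target genes of p53, the transcription factor that DNA damage activates. They were chosen by name from the textbook p53 pathway and matched to the symbol of a row in the deposited gene table, where each of the 31 was found once among 58307 rows that name a gene. RNA was sequenced from A375 and SK-MEL-28, established human melanoma cell lines, after etoposide or after etoposide + rapamycin, with 3 libraries in each of the 4 groups and 12 in all. Every group, the comparison groups included, had received etoposide, an agent that traps topoisomerase II on cut DNA, and the added agent was rapamycin, an inhibitor of the growth kinase complex mTORC1 that induces autophagy. The 12 libraries include none without drug or with rapamycin alone, so the effect of etoposide itself on these genes has no measurement in the values given. The libraries of a group are described as biological replicates in the study's methods, and the doses and times behind the RNA are not given in the sources used here. The drug comparison asked what rapamycin changed in cells under etoposide, in a study of whether inducing autophagy alters the response to drugs.

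p53 is kept scarce by MDM2, a ubiquitin ligase that marks it for degradation. DNA breaks activate kinases that free p53 from MDM2, and p53 then binds a response element made of a pair of decamers near its target genes and raises their transcription. The products of these genes arrest the cell cycle, limit p53 again, start apoptosis, repair DNA, adjust metabolism and signal to other cells.

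Library totals ranged from 28189501 to 32499337 counts, and levels are given as CPM, which are counts relative to each library's total after TMM adjustment over the 12 libraries. The 31 genes together held 0.514% to 0.524% of all counts in A375 with etoposide and 0.431% to 0.446% with rapamycin added. The corresponding shares were 0.578% to 0.596% and 0.524% to 0.534% in SK-MEL-28. These sums follow the most abundant genes and do not describe the typical gene. CDKN1A alone averaged 1643 and 1302 CPM in A375 without and with rapamycin, and 1975 and 1551 CPM in SK-MEL-28. Of 8 melanocyte lineage markers, SOX10, S100B and MITF exceeded 10 CPM, whereas the pigment genes PMEL, MLANA, TYR, DCT and TYRP1 were at or below 2.99 CPM in all 12 libraries, including those labelled SK-MEL-28, a line known to express them. Libraries of different cell lines correlated at 0.958 to 0.970 (Pearson's r of log2 CPM over 20101 genes, which are not independent). Libraries of the same line in the other treatment correlated at 0.977 to 0.981, and libraries of the same group at 0.983 to 0.986. The libraries labelled SK-MEL-28 thus differed in expression from those of A375 but lacked defining markers of their line. These values do not settle which line they are, and the name SK-MEL-28 below is that of the label. The fold changes and tests of the A375 response use none of these libraries, whereas the CPM values share TMM factors with them. Summed markers of epithelial cells, fibroblasts and endothelial cells stayed at or below 10.6 CPM, and of 4 blood markers PTPRC, CD3E and HBB were at or below 0.632 CPM in all libraries. The other, CD68, a lysosomal protein, averaged 28.9 CPM in A375 with etoposide and 41.5 CPM with rapamycin, and 21.7 and 33.7 CPM in SK-MEL-28, so its mean was higher with rapamycin in both lines, although the groups overlapped in each. Its part in the results was not tested.

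Matches to the p53 response element consensus, a pair of abutting decamers, were searched within 2500 bases of the start of each gene's Ensembl canonical transcript (GENCODE 44, GRCh38). Since the consensus is its own reverse complement, 1 strand covers both, and the core C and G of each decamer had to be intact. Of the 31 genes, 2 (6.45%) held a match with 0 mismatches, 7 (22.6%) with at most 1 and 17 (54.8%) with at most 2, compared with 0.0649%, 0.519% and 3.77% of all 20033 protein-coding genes searched. The genes were chosen as p53 targets, so this difference describes the choice. The sequences below belong to 8 genes on which the results turn and show how far each element departs from the consensus, with the 4 core bases of each decamer in capitals and the strand of the gene shown.
CDKN1A, chr6:36676449-36676468, 2256 bases upstream of the start, 2 mismatches: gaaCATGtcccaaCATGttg
PLK2, chr5:58462274-58462293, 2198 bases upstream, 0 mismatches: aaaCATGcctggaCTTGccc
GDF15, chr19:18385308-18385327, 840 bases upstream, 2 mismatches: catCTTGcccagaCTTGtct
MDM2, chr12:68808923-68808942, in an intron 756 bases downstream, 2 mismatches: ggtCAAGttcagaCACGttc
ZMAT3, chr3:179070188-179070207, in an intron 1612 bases downstream, 0 mismatches: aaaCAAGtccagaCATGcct
EDA2R, chrX:66638713-66638732, in an intron 356 bases downstream, 1 mismatch: gaaCATGcctggaCGTGtcc
BAX, chr19:48955213-48955232, in an intron 348 bases downstream, 2 mismatches: gggCAGGcccgggCTTGtcg
GADD45A, chr1:67686775-67686794, in an intron 1584 bases downstream, 1 mismatch: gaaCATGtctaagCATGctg
PLK2 and ZMAT3 carried the 2 elements that met the consensus at every base. PERP, TIGAR and BBC3 held no such match in this window, which says only that these letters are not there. A match is a description of sequence, and binding of p53 was not measured.

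**Figure D1:**
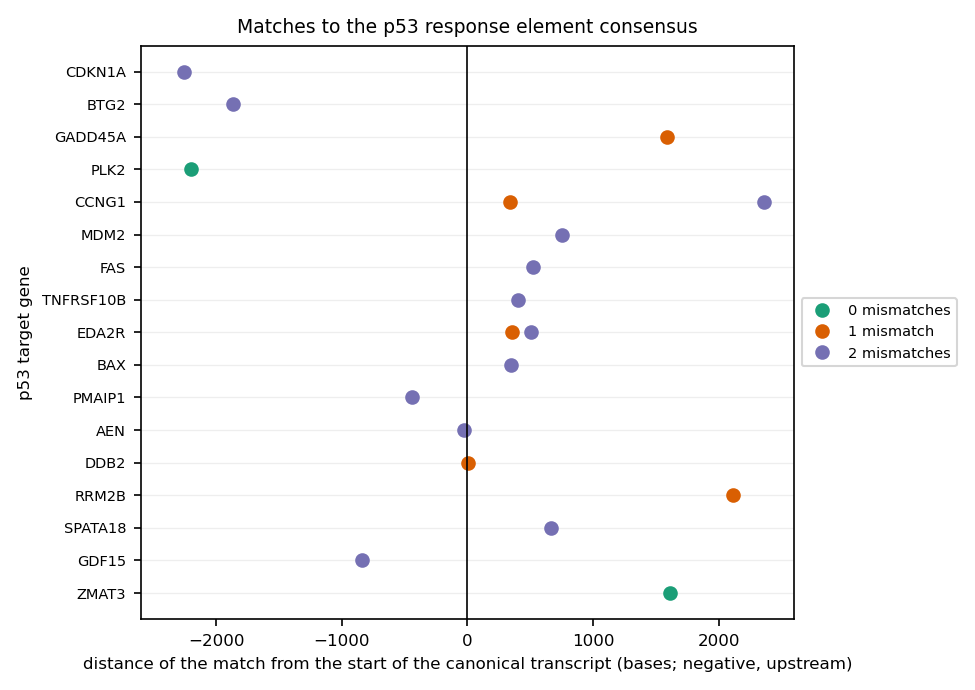
Each point is a match to the p53 response element consensus, placed by its distance in bases from the start of the canonical transcript (negative, upstream) and coloured by its number of mismatches, for the 17 genes with at least 1 match. The 2 matches with 0 mismatches are upstream of PLK2 and inside ZMAT3.

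SPATA18, a gene for mitochondrial quality control, had 0 to 9 counts per library and was not tested, which left 30 genes. Per kilobase of the canonical transcript, CDKN1A was the most abundant of them in A375 with etoposide, at 776 ± 27.2 CPM per kilobase (SD, n = 3), which ranked 82 among 18594 protein-coding genes. BAX followed at 262 ± 22.8, and then PHLDA3 at 109.5 ± 3.31 and MDM2 at 94.1 ± 1.46 CPM per kilobase. The lowest of the tested genes were POLH at 2.95 ± 0.333 and TIGAR at 6.88 ± 0.261 CPM per kilobase, with PPM1D at 7.27 ± 0.117, SUSD6 at 7.33 ± 0.650 and EDA2R at 7.67 ± 0.580 next above them. Length and the choice of transcript enter these levels, so they order the genes only roughly.

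With rapamycin added to etoposide in A375, the arrest gene CDKN1A, the p53 antagonist MDM2, the stress cytokine GDF15 and 8 other targets were lower, and GADD45A, PLK3 and the death genes BAX, BBC3 and AEN were higher. In all, 16 of the 30 genes passed an adjusted p of 0.05 in edgeR's quasi-likelihood test, 5 higher and 11 lower, in a comparison in which 28.1% of all 18844 genes tested did so, 14.3% higher and 13.8% lower. GDF15 was the one gene that also passed the study's fold change of 1.5, on the lower side, against 5.89% of all genes, 3.09% higher and 2.8% lower. The median log2 fold change of the 30 genes was -0.069, and that of all genes was -0.0051. In SK-MEL-28, 10 of the 30 passed, 5 higher and 5 lower, against 19% of all 18897 genes tested, 8.83% higher and 10.1% lower. GDF15 again was alone in passing 1.5-fold, against 4.99% of all genes, 1.85% higher and 3.14% lower, and the median of the 30 genes was 0.016 on the log2 scale against 0.0053 for all genes. Without SK-MEL-28 etoposide + rapamycin replicate 3, 6 genes passed in SK-MEL-28, and without A375 etoposide + rapamycin replicate 2, 2 genes passed 1.5-fold in A375. The median of the 30 genes became -0.13 in A375 without etoposide + rapamycin replicate 1 and -0.11 with library totals, and in SK-MEL-28 it changed sign, to -0.020 without etoposide + rapamycin replicate 2 and -0.018 with library totals. The target genes of 1 transcription factor thus responded in both directions, in either cell line. RNA was taken from whole cultures, so a change in the share of cells in a given state and a change of RNA per cell cannot be told apart.

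The cell lines share no library, so their responses can be set side by side. Of the 30 genes, 19 (63.3%) had a log2 fold change of the same sign in both, against 67% of the 18140 genes tested in both. Passing in both lines were 7 (23.3%), against 11.3% of all genes, and each of the 7 had the same direction in A375 and SK-MEL-28. Agreement in direction was usual among genes that passed in both lines, at 1964 of 2043 over all genes. CDKN1A, PLK2, RRM2B and GDF15 were the 4 that were lower in both, and GADD45A, BAX and BBC3 were the 3 that were higher in both.

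**Figure D2:**
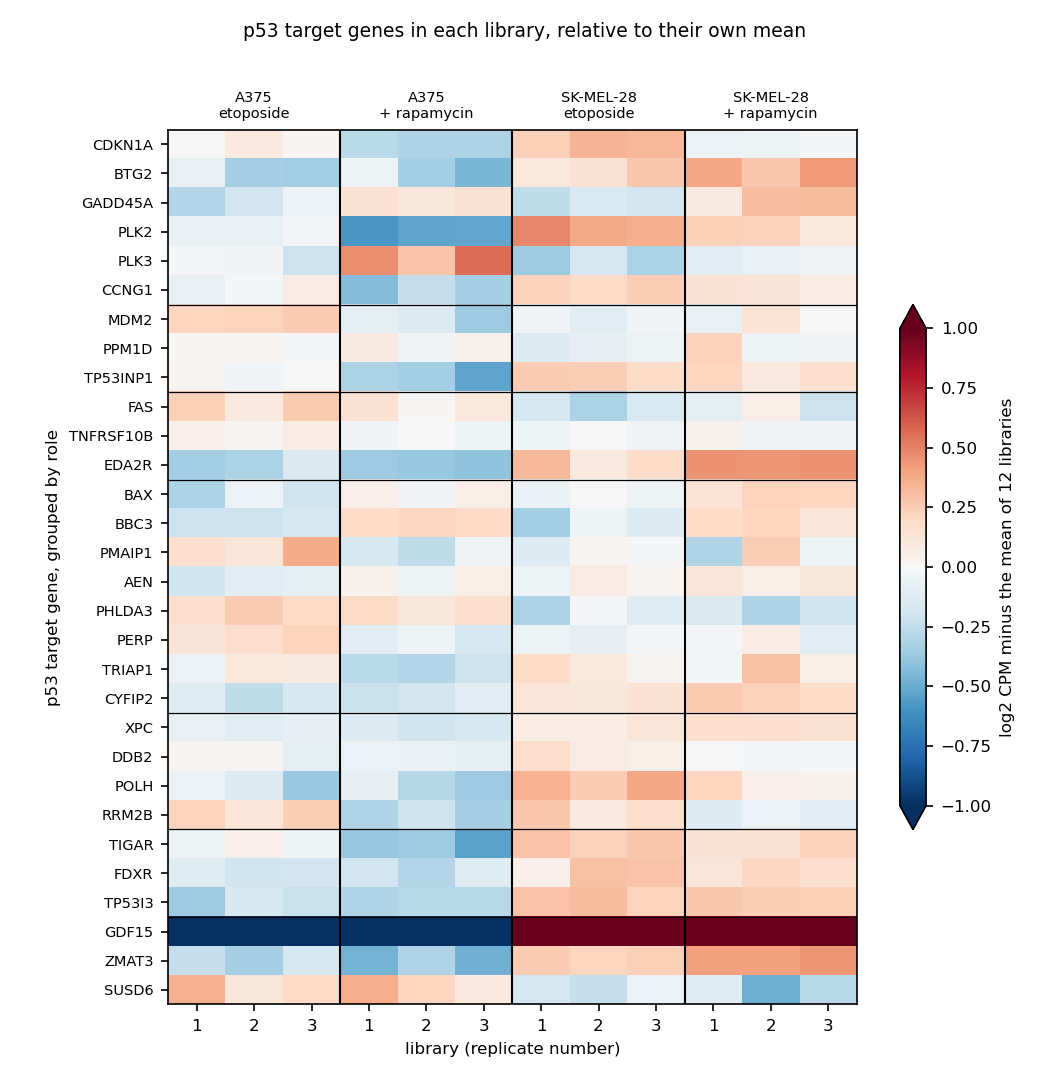
Rows are the 30 tested genes grouped by role (arrest, feedback, death receptors, other apoptosis genes, repair, metabolism, and secreted, RNA-binding and other), columns are the 12 libraries, and colour is log2 CPM minus the mean of that gene over all libraries. The colour scale ends at 1 and -1, which GDF15 exceeds in all 12 libraries, lower in A375 and higher in SK-MEL-28.

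Among 6 genes of cell cycle arrest, 5 passed in A375 (2 higher, 3 lower) and 3 in SK-MEL-28 (1 higher, 2 lower). Of all genes, 28.1% passed in A375 and 19% in SK-MEL-28. Each role holds few genes, so the counts per role here and below describe those genes only. CDKN1A (chr6:36676460-36687337) encodes p21, the inhibitor of cyclin-dependent kinases through which p53 halts division. It measured 1596, 1707 and 1625 CPM in A375 with etoposide and 1326, 1290 and 1291 CPM with rapamycin added. In SK-MEL-28 it measured 1891, 2024 and 2009.7 CPM and 1536, 1542 and 1575 CPM. All rapamycin libraries lay below all etoposide libraries of their line, and the log2 fold change was -0.33 ± 0.040 (SE) in A375 (adjusted p = 9.04e-05) and -0.35 ± 0.038 in SK-MEL-28 (adjusted p = 3.84e-05). The difference between the lines in this response was -0.013 ± 0.053 (adjusted p = 0.924).

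PLK2 (chr5:58453982-58460139), a polo-like kinase that p53 induces, measured 192, 192 and 199.8 CPM in A375 with etoposide and 135, 139.9 and 140.5 CPM with rapamycin. SK-MEL-28 gave 282, 262 and 259 CPM and 238, 237 and 217 CPM. The groups did not overlap in either line, and the log2 fold change was -0.49 ± 0.043 in A375 (adjusted p = 7.97e-06) and -0.22 ± 0.055 in SK-MEL-28 (adjusted p = 0.0148). The SK-MEL-28 call was lost without etoposide + rapamycin replicate 3 or etoposide replicate 1 (adjusted p up to 0.0827).

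GADD45A, a stress sensor that binds p21 and the replication clamp PCNA, went the other way. It rose in A375 from a range of 94.4 to 111 CPM with etoposide to one of 125 to 129 CPM with rapamycin and in SK-MEL-28 from a range of 96.8 to 104 CPM to one of 123 to 144 CPM, by 0.32 ± 0.057 (adjusted p = 0.00118) and 0.43 ± 0.065 (adjusted p = 0.000528) on the log2 scale. PLK3, a second polo-like kinase of the stress response, rose in A375 from a range of 33.9 to 39.03 CPM to one of 47.9 to 57.7 CPM, by 0.52 ± 0.078 (adjusted p = 0.000388), and showed 0.20 ± 0.070 in SK-MEL-28, where it missed the threshold (adjusted p = 0.0614). The 2 polo-like kinases thus moved in opposite directions in A375.

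CCNG1, a cyclin that recruits phosphatase 2A to MDM2, fell in A375, at -0.32 ± 0.059 (adjusted p = 0.00142), and gave -0.11 ± 0.049 in SK-MEL-28 (adjusted p = 0.138). BTG2, an antiproliferative cofactor of mRNA deadenylation, passed in neither line, with -0.024 ± 0.11 in A375 and 0.18 ± 0.067 in SK-MEL-28.

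Of 3 genes that feed back on p53, 2 were lower in A375 and none of the 3 passed in SK-MEL-28. Of all genes, 13.8% were lower in A375 and 19% passed in SK-MEL-28. MDM2 (chr12:68808177-68845544) measured 697, 700.2 and 718 CPM in A375 with etoposide and 561, 545 and 466 CPM with rapamycin, a log2 fold change of -0.42 ± 0.061 (adjusted p = 0.000294). In SK-MEL-28 its 589, 556 and 590.1 CPM under etoposide overlapped the 572, 658 and 601 CPM with rapamycin, at 0.075 ± 0.054 (adjusted p = 0.386). Rapamycin thus accompanied lower MDM2 in all 3 A375 libraries and no separation in SK-MEL-28. The MDM2 locus also overlaps 3 other annotated genes, and 2 other names on the same locus held 208 counts on average beside 18091 for MDM2. Annotated genes likewise overlap CDKN1A, PLK3, TP53INP1, FAS, TNFRSF10B, PHLDA3, TRIAP1, CYFIP2, XPC, DDB2, POLH, TIGAR, TP53I3 and SUSD6, and how the counting divided reads between them is not given in the sources used here.

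TP53INP1 encodes a nuclear cofactor that promotes p53 phosphorylation and also takes part in autophagy. It measured 50.2, 48.4 and 49.6 CPM in A375 with etoposide and 39.6, 39.01 and 34.2 CPM with rapamycin, without overlap, and the difference was -0.39 ± 0.066 (adjusted p = 0.000907). SK-MEL-28 gave 58.95, 58.5 and 56.1 CPM and 57.3, 52.8 and 55.5 CPM, which overlapped, at -0.071 ± 0.054 (adjusted p = 0.413). PPM1D, the phosphatase WIP1 that switches off p53 signalling, passed in neither line, with 0.037 ± 0.064 and 0.14 ± 0.083.

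Of 3 death receptors, none passed in A375 and 1 rose in SK-MEL-28, where 8.83% of all genes were higher. In A375, 28.1% of all genes passed. EDA2R (chrX:66595637-66639298), a receptor of the tumour necrosis factor family that binds ectodysplasin A2, measured 25.1, 25.6 and 28.8 CPM in A375 with etoposide and 24.9, 24.5 and 24.2 CPM with rapamycin, at -0.11 ± 0.080 (adjusted p = 0.352). In SK-MEL-28 it went from 39.99, 34.2 and 36.3 CPM to 43.6, 43.3 and 43.5 CPM, a rise of 0.24 ± 0.068 (adjusted p = 0.0281). The SK-MEL-28 groups did not overlap, but the call was lost when any library other than etoposide replicate 1 was left out, with library totals and when every gene with a count was kept, with adjusted p up to 0.0981. FAS, the receptor of the Fas ligand, gave -0.11 ± 0.059 in A375 and 0.14 ± 0.074 in SK-MEL-28. TNFRSF10B, the receptor DR5 of the ligand TRAIL, gave -0.068 ± 0.041 and 0.013 ± 0.046, and neither receptor passed in either line.

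Of 8 mitochondrial and other apoptosis genes, 6 passed in A375, 3 higher and 3 lower, and 2 in SK-MEL-28, both higher. All genes passed at 28.1% in A375 and 19% in SK-MEL-28, so the 2 of 8 in SK-MEL-28 lay near the share of all genes. BAX (chr19:48954815-48961798), the effector that opens the mitochondrial outer membrane, measured 191, 227 and 206 CPM in A375 with etoposide and 245, 233 and 248 CPM with rapamycin. SK-MEL-28 gave 226, 238 and 229 CPM and 261, 276 and 275 CPM. The rise was 0.22 ± 0.060 in A375 (adjusted p = 0.0147) and 0.22 ± 0.049 in SK-MEL-28 (adjusted p = 0.00622), without overlap in either line. In A375 the call was lost without etoposide + rapamycin replicate 1 or 3 and when every gene with a count was kept (adjusted p up to 0.0601).

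BBC3 encodes PUMA, a BH3-only protein that neutralises the survival proteins of the BCL2 family. It rose in A375 from a range of 33.5 to 34.6 CPM with etoposide to one of 44.4 to 45.1 CPM with rapamycin, by 0.40 ± 0.057 (adjusted p = 0.000252), and in SK-MEL-28 from a range of 30.8 to 37.8 CPM to one of 42.5 to 45.2 CPM, by 0.34 ± 0.076 (adjusted p = 0.008). PMAIP1, which encodes the other BH3-only protein, NOXA, fell in A375 from a range of 25.5 to 30.4 CPM to one of 19.7 to 22.9 CPM, at -0.37 ± 0.092 (adjusted p = 0.0104), and gave 0.019 ± 0.12 in SK-MEL-28. The PMAIP1 call was lost without A375 etoposide + rapamycin replicate 2 (adjusted p up to 0.0533). PUMA and NOXA transcripts therefore moved apart in A375.

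PERP (chr6:138088505-138107419), a membrane protein of p53-dependent apoptosis and of desmosomes, measured 115, 119.6 and 123 CPM in A375 with etoposide and 98.2, 103 and 93.6 CPM with rapamycin. The groups did not overlap, and the log2 fold change was -0.28 ± 0.050 (adjusted p = 0.00135). In SK-MEL-28, 102, 99.9 and 105 CPM and 104, 111 and 97.9 CPM overlapped, at 0.025 ± 0.056 (adjusted p = 0.806). TRIAP1, a small survival protein that carries lipid within mitochondria, fell in A375, at -0.30 ± 0.060 (adjusted p = 0.0024), and gave 0.0098 ± 0.075 in SK-MEL-28. AEN, a nuclease of apoptotic cells, rose in A375 by 0.16 ± 0.048 (adjusted p = 0.0286), a call lost without A375 etoposide + rapamycin replicate 1 or 3 or etoposide replicate 1, with library totals or when every gene with a count was kept (adjusted p up to 0.115). PHLDA3, which competes with the kinase AKT for membrane lipids, and CYFIP2, an actin regulator of the WAVE complex, passed in neither line, PHLDA3 at -0.043 ± 0.044 and -0.071 ± 0.071 and CYFIP2 at 0.013 ± 0.053 and 0.093 ± 0.048 in A375 and SK-MEL-28.

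Of 4 genes of DNA repair and nucleotide supply, 1 was lower in A375 and 2 in SK-MEL-28. Of all genes, 13.8% and 10.1% were lower in the 2 lines. RRM2B, the p53-inducible subunit of ribonucleotide reductase, fell in A375 from a range of 132 to 145 CPM with etoposide to one of 96.9 to 106 CPM with rapamycin, at -0.47 ± 0.052 (adjusted p = 4.44e-05). In SK-MEL-28 the ranges were 130.4 to 147 CPM and 112 to 117 CPM, again a fall, at -0.28 ± 0.056 (adjusted p = 0.00334). The 2 lesion sensors of nucleotide excision repair did not pass in either line, XPC at -0.070 ± 0.044 and 0.067 ± 0.048 and DDB2 at -0.048 ± 0.048 and -0.12 ± 0.051 in A375 and SK-MEL-28. POLH, the polymerase that copies past ultraviolet lesions, fell in SK-MEL-28, at -0.23 ± 0.075 with an adjusted p of 0.0498, just inside the threshold. That call was lost without SK-MEL-28 etoposide + rapamycin replicate 2 or 3 or etoposide replicate 1 or 3, in 1 fit of all 12 libraries and when every gene with a count was kept (adjusted p up to 0.177).

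Of 3 tested genes of metabolism and redox balance, TIGAR was lower in A375 and none of the 3 passed in SK-MEL-28. All genes were lower at 13.8% in A375 and passed at 19% in SK-MEL-28. TIGAR (chr12:4307763-4360028), a phosphatase that turns sugar away from glycolysis towards NADPH, measured 55.2, 58.98 and 55.4 CPM in A375 with etoposide and 43.9, 44.6 and 39.4 CPM with rapamycin, a log2 fold change of -0.40 ± 0.063 (adjusted p = 0.000515). In SK-MEL-28 it gave 69.6, 66.8 and 68.7 CPM and 63.1, 63.6 and 66.96 CPM, at -0.085 ± 0.050 (adjusted p = 0.269), and the groups overlapped. FDXR, the mitochondrial ferredoxin reductase, gave -0.021 ± 0.055 and -0.051 ± 0.065, and TP53I3, a quinone oxidoreductase, gave -0.036 ± 0.057 and -0.026 ± 0.049 in A375 and SK-MEL-28.

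GDF15 (chr19:18374731-18389176), a secreted stress cytokine of the TGF-beta family that p53 and the integrated stress response both induce, changed more than any other of the 30 genes. It measured 43.1, 43.6 and 40.99 CPM in A375 with etoposide and 23.4, 22.5 and 22.5 CPM with rapamycin, and 277, 329 and 325 CPM and 184, 213 and 220.2 CPM in SK-MEL-28. No rapamycin library reached any etoposide library of its line. The log2 fold change was -0.90 ± 0.067 in A375 (1.86-fold lower, adjusted p = 1.96e-06) and -0.60 ± 0.077 in SK-MEL-28 (1.51-fold lower, adjusted p = 0.00016). In SK-MEL-28 its change was under 1.5-fold without etoposide + rapamycin replicate 1 or etoposide replicate 2 or 3, and leaving out each library in turn gave -0.67 to -0.52. Its rank by CPM per kilobase among 18594 protein-coding genes went from 1986 to 3607 in A375 and from 212 to 328 in SK-MEL-28.

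ZMAT3 (chr3:178960121-179072215), a zinc finger protein that binds RNA and shapes splicing, measured 118, 110.2 and 124 CPM in A375 with etoposide and 99.8, 112 and 99.2 CPM with rapamycin. These groups overlapped, and the log2 fold change of -0.17 ± 0.061 missed the threshold (adjusted p = 0.0505), which it passed in 7 of 14 alternative settings. In SK-MEL-28 it went from 165, 161 and 163 CPM to 184, 184 and 189 CPM, a rise of 0.18 ± 0.047 (adjusted p = 0.0169) without overlap, which lost its call without etoposide + rapamycin replicate 3 or etoposide replicate 2 or 3 (adjusted p up to 0.0704). SUSD6, a membrane protein, passed in neither line, with 0.014 ± 0.083 and -0.14 ± 0.094.

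**Figure D3:**
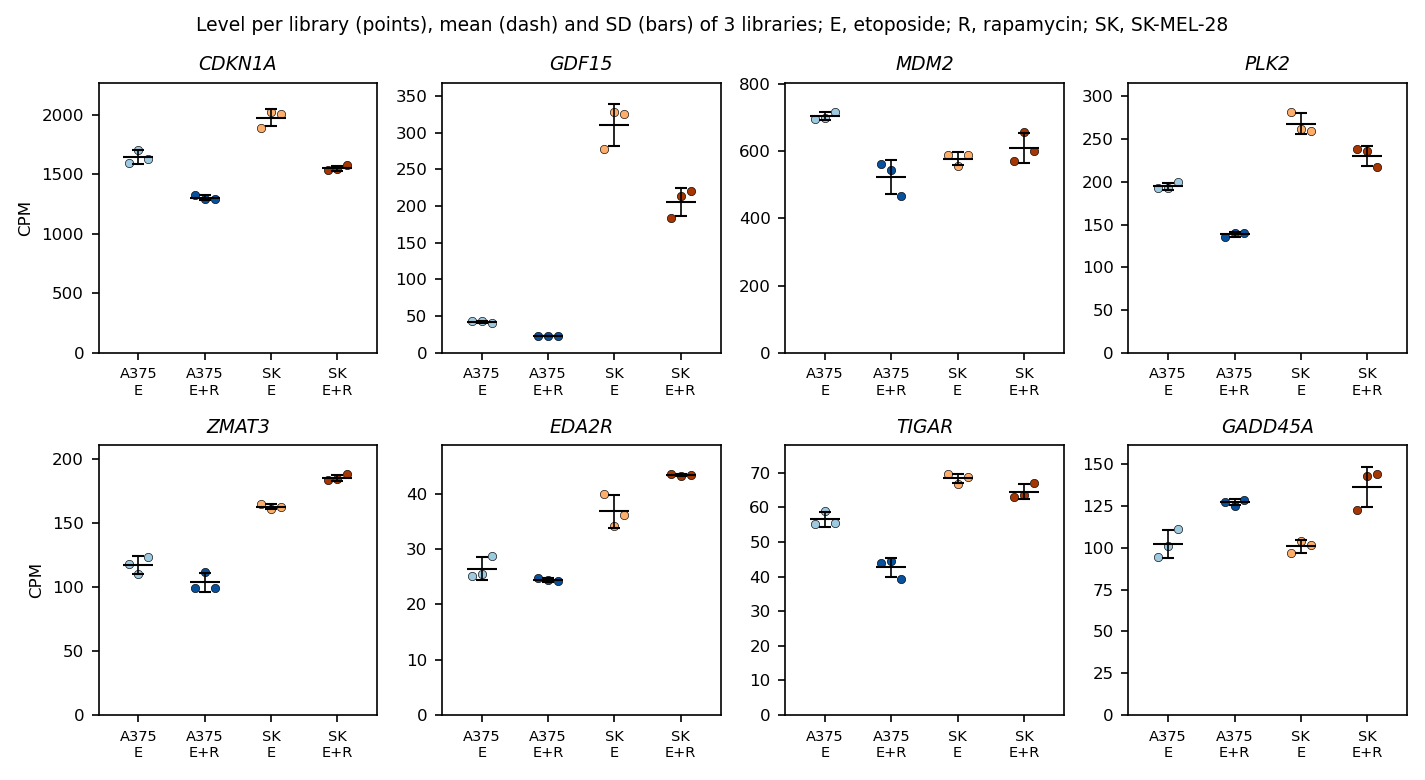
CPM of 8 p53 target genes in each library (points), with the mean (dash) and SD (bars) of 3 libraries per group, on axes that start at 0. CDKN1A, GDF15 and PLK2 were lower and GADD45A higher with rapamycin in both lines, whereas MDM2 and TIGAR were lower with rapamycin in A375 with no such call in SK-MEL-28, and ZMAT3 and EDA2R were higher in SK-MEL-28 with no call in A375.

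A difference of the rapamycin response between A375 and SK-MEL-28 was tested as the interaction of cell line and treatment over all 12 libraries, the same libraries as above. A positive value means a less negative or more positive response in SK-MEL-28. Of the 30 genes, 7 passed, all of them positive, against 5.62% of all 20101 genes tested, 2.66% positive and 2.97% negative. The calls were not 1-sided in every setting. DESeq2 called 9 positive and 1 negative, with 1792 of all genes passing. Without A375 etoposide + rapamycin replicate 2, 6 were positive and 1 negative. In the edgeR test of all 12 libraries MDM2 had the largest difference, 0.51 ± 0.088 (adjusted p = 0.00286), followed by ZMAT3 at 0.36 ± 0.076 (adjusted p = 0.0106). These 2 passed in each of the 19 alternative settings run, which include leaving out any single library. The members of this group have different roles, since MDM2 and TP53INP1 act on p53, PLK2 on the cell cycle, EDA2R and PERP in cell death, TIGAR in metabolism and ZMAT3 on RNA.

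The other 5 calls were lost when certain single libraries were left out, and all 5 were also lost when every gene with a count was kept. Calls over all genes changed too, from 1130 to between 594 and 1315 with 1 library left out. They numbered 658 when every gene with a count was kept. Whether a lost call reflects a given library or the smaller number of libraries was not tested. PLK2, at 0.28 ± 0.067 (adjusted p = 0.0232, up to 0.0763), was lost without A375 etoposide + rapamycin replicate 1, A375 etoposide replicate 3, SK-MEL-28 etoposide + rapamycin replicate 1 or 2, or SK-MEL-28 etoposide replicate 2 or 3. PERP, at 0.31 ± 0.076 (adjusted p = 0.0243, up to 0.0774), was lost without A375 etoposide + rapamycin replicate 1 or 3, A375 etoposide replicate 2 or 3, or replicate 2 of either SK-MEL-28 group. TIGAR, at 0.32 ± 0.080 (adjusted p = 0.0251, up to 0.0809), was lost without A375 etoposide + rapamycin replicate 3, A375 etoposide replicate 2, SK-MEL-28 etoposide + rapamycin replicate 3, or SK-MEL-28 etoposide replicate 2 or 3. All of these kept a positive sign in every setting run. TP53INP1, at 0.32 ± 0.084 (adjusted p = 0.0317, up to 0.0883), kept its call, among the libraries left out in turn, only without A375 etoposide + rapamycin replicate 1 or 2, SK-MEL-28 etoposide + rapamycin replicate 2 or SK-MEL-28 etoposide replicate 1. EDA2R, at 0.35 ± 0.10 (adjusted p = 0.0463, up to 0.139), kept it, among the libraries left out in turn, only without replicate 1 of either etoposide group, and lost it with the size factors of DESeq2. Leaving out 1 library gave 2 to 7 genes in place of 7, the lowest without SK-MEL-28 etoposide replicate 2. The median difference of the 30 genes was 0.13 on the log2 scale, against 0.018 for all genes.

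**Figure D4:**
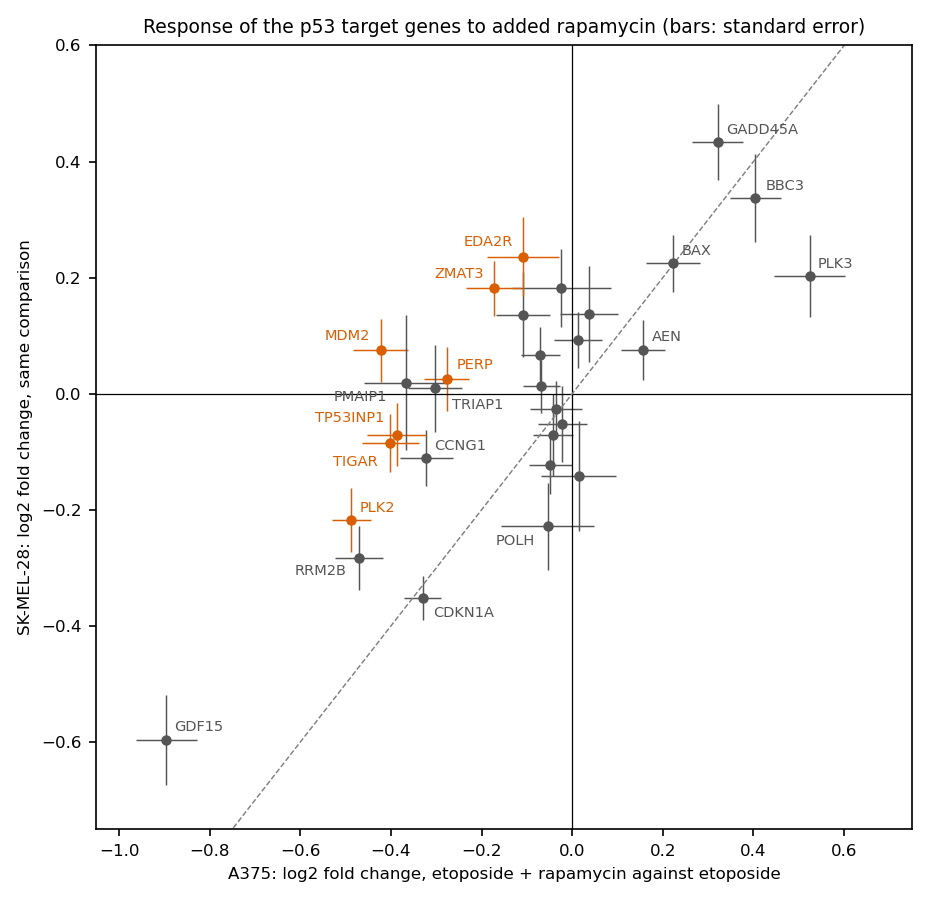
Each point is 1 of the 30 genes, with its log2 fold change to added rapamycin in A375 on the horizontal axis and in SK-MEL-28 on the vertical axis, standard errors as bars and equal responses on the dashed line. The 7 genes in orange, from MDM2 to PLK2, passed the test of the difference between the lines and all lie above the dashed line, and GDF15 lies at the lower left.

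SK-MEL-28 was compared with A375 in each treatment, with separate libraries for the 2 treatments. Under etoposide, 21 of the 30 genes passed, 15 higher and 6 lower in SK-MEL-28, against 31.7% of all 19025 genes tested, 15.2% higher and 16.5% lower. Under etoposide + rapamycin, 21 passed, 18 higher and 3 lower, against 40.4% of all 18817 genes, 19.8% higher and 20.5% lower. Past 1.5-fold were 1 gene under etoposide, against 13% of all genes, 5.7% higher and 7.32% lower, and 6 under etoposide + rapamycin, all higher in SK-MEL-28, against 14.9% of all genes, 6.29% higher and 8.66% lower. The median over the 30 genes was 0.15 under etoposide and 0.23 under etoposide + rapamycin, with the medians of all genes at -0.0025 and 0.0026. Each side is 1 cell line, so the difference is one between these 2 lines as labelled.

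GDF15 stood apart, at 42.6 ± 1.38 CPM (SD, n = 3) in A375 and 310.4 ± 28.7 CPM in SK-MEL-28 under etoposide, a log2 difference of 2.87 ± 0.071 (7.3-fold, adjusted p = 1.46e-11). With rapamycin the levels were 22.8 ± 0.484 and 206 ± 19.4 CPM and the difference 3.17 ± 0.070 (9-fold, adjusted p = 1.55e-12). The other 5 genes past 1.5-fold under etoposide + rapamycin were ZMAT3 at 0.83 ± 0.053, EDA2R at 0.82 ± 0.059, PLK2 at 0.73 ± 0.048, BTG2 at 0.63 ± 0.090 and TIGAR at 0.59 ± 0.060. Under etoposide alone the same 5 gave 0.48 ± 0.054, 0.48 ± 0.082, 0.46 ± 0.050, 0.42 ± 0.085 and 0.28 ± 0.057, each past the adjusted p in SK-MEL-28 against A375.

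CDKN1A was higher in SK-MEL-28 by nearly the same amount in both treatments, 0.27 ± 0.046 (adjusted p = 0.000682) under etoposide and 0.25 ± 0.034 (adjusted p = 6.57e-05) with rapamycin. MDM2 changed its order. It was lower in SK-MEL-28 under etoposide, at -0.28 ± 0.045 (adjusted p = 0.000319), and higher there under etoposide + rapamycin, at 0.22 ± 0.067 (adjusted p = 0.0198), although this second call was lost without A375 etoposide + rapamycin replicate 3 or SK-MEL-28 etoposide + rapamycin replicate 2 and when every gene with a count was kept (adjusted p up to 0.095).

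The metabolic genes TP53I3 and FDXR were higher in SK-MEL-28 in both treatments, TP53I3 by 0.52 ± 0.062 and 0.53 ± 0.046 and FDXR by 0.39 ± 0.068 and 0.36 ± 0.054. POLH and XPC were higher too, POLH by 0.51 ± 0.087 and 0.34 ± 0.086 and XPC by 0.18 ± 0.048 and 0.32 ± 0.043, where the first XPC call was lost without A375 etoposide replicate 2 or SK-MEL-28 etoposide replicate 3 (adjusted p up to 0.0564). CCNG1, TP53INP1 and CYFIP2 also passed as higher in both treatments. PHLDA3 and SUSD6 were lower in SK-MEL-28 in both treatments, PHLDA3 at -0.35 ± 0.066 and -0.38 ± 0.049 and SUSD6 at -0.37 ± 0.080 and -0.52 ± 0.094.

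Several genes passed in 1 treatment. FAS was lower in SK-MEL-28 under etoposide, at -0.41 ± 0.069 (adjusted p = 0.0005), with -0.17 ± 0.068 under etoposide + rapamycin, and PERP was lower under etoposide, at -0.22 ± 0.051, with 0.083 ± 0.056 under etoposide + rapamycin. Under etoposide + rapamycin PLK3 was lower in SK-MEL-28, at -0.52 ± 0.067 (adjusted p = 4.34e-05) and TRIAP1 higher, at 0.37 ± 0.071 (adjusted p = 0.000952), neither of which passed under etoposide. PMAIP1 (lower) and AEN (higher) passed under etoposide at adjusted p values of 0.0333 and 0.0358. The PMAIP1 call was lost without A375 etoposide replicate 3 or any SK-MEL-28 etoposide library, in 1 fit of all 12 libraries and when every gene with a count was kept (adjusted p up to 0.155) and the AEN call without any A375 etoposide library or SK-MEL-28 etoposide replicate 2 or 3 and when every gene with a count was kept (adjusted p up to 0.124). BAX and RRM2B passed as higher under etoposide + rapamycin at adjusted p values of 0.0138 and 0.0114. The BAX call was lost without A375 etoposide + rapamycin replicate 2 or SK-MEL-28 etoposide + rapamycin replicate 3 (up to 0.0827) and the RRM2B call without A375 etoposide + rapamycin replicate 3 (up to 0.0558). Whether a difference between the lines changed with the treatment is the interaction above, which passed for PERP and missed the threshold for TRIAP1 (adjusted p = 0.0831), PLK3 (0.102), RRM2B (0.153), FAS (0.164), PMAIP1 (0.171), AEN (0.605) and BAX (0.961). GADD45A, PPM1D, TNFRSF10B, BBC3 and DDB2 passed in neither treatment.

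**Figure D5:**
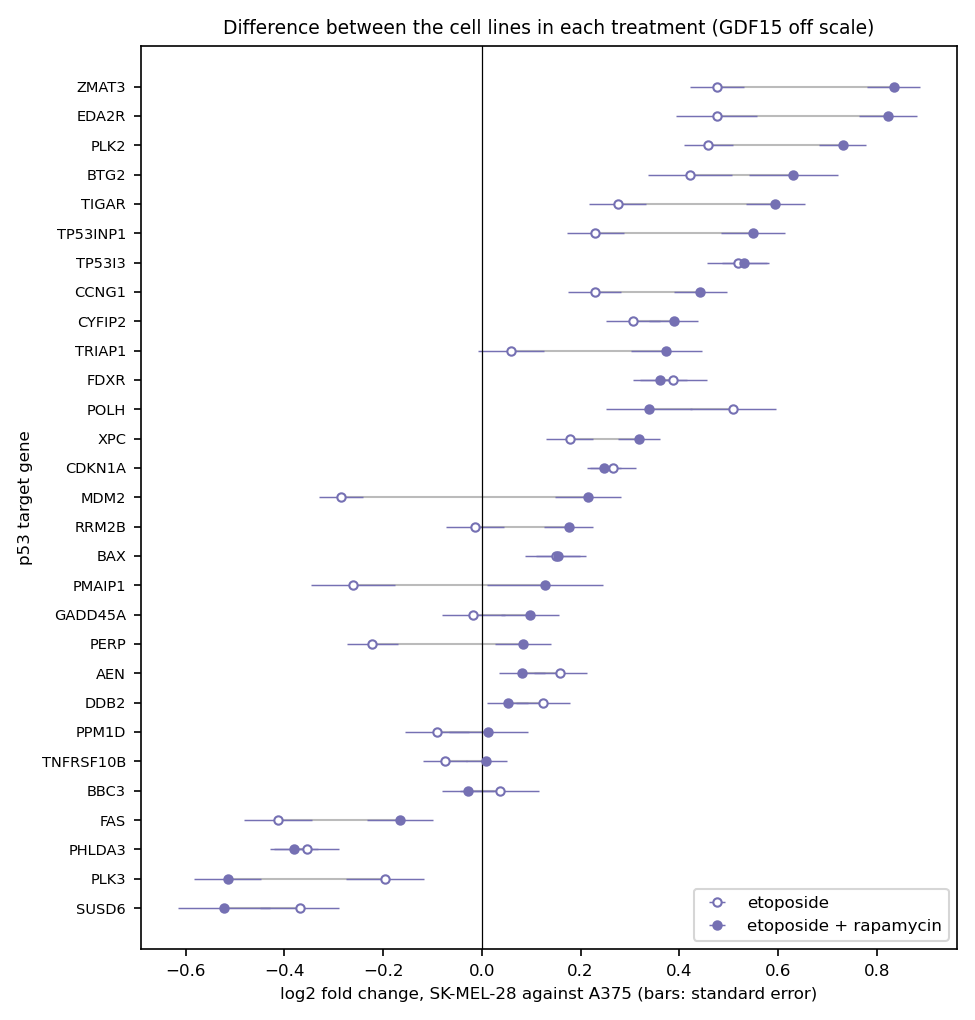
The log2 fold change of SK-MEL-28 against A375 is shown for 29 p53 target genes under etoposide (open circles) and etoposide + rapamycin (filled circles), with standard errors as bars. GDF15, at 2.87 and 3.17, is outside the axis, most genes lie to the right of 0 in both treatments, and MDM2 lies on opposite sides of 0.

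Other genes of the pathway were counted from lists chosen with earlier results of these data known, so they are not independent of them. They include SFN, which the study had named as downregulated with rapamycin in both lines. Among 37 tested of 38 further p53 target genes, 25 passed in A375, 10 higher and 15 lower, and 9 in SK-MEL-28, 3 higher and 6 lower. These are 67.6% and 24.3% of the list, against 28.1% and 19% of all genes, so the SK-MEL-28 share was near that of all genes. The interaction passed for 4 of the 37 (10.8%), 2 positive and 2 negative, against 5.62% of all genes. The median difference of this list was 0.036, against 0.018 for all genes, so the positive shift of the 30 genes was not seen to that extent here. SFN, the 14-3-3 sigma gene that holds cells before mitosis, fell in both lines, at -1.79 ± 0.35 in A375 (adjusted p = 0.00239) and -2.45 ± 0.22 in SK-MEL-28 (adjusted p = 7.81e-06), from 1.80, 1.48 and 1.23 to 0.280, 0.572 and 0.436 CPM and from 6.83, 7.15 and 6.05 to 0.904, 1.72 and 1.07 CPM. Past 1.5-fold upwards in A375 were CSF1, the macrophage growth factor, at 0.75 ± 0.11, THBS1, thrombospondin 1, at 0.72 ± 0.052, and TNFRSF10C, a decoy TRAIL receptor of low level (3.18 to 4.33 CPM under etoposide), at 0.69 ± 0.18.

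Among 17 tested of 19 p53 regulators, 2 were higher in A375 and 1 in SK-MEL-28, and none was lower. These shares of 11.8% and 5.88% lay below the 28.1% and 19% of all genes called in either direction. MDM4, the partner of MDM2 that masks p53, gave 0.16 ± 0.061 in A375 (adjusted p = 0.0687) and rose by 0.44 ± 0.061 in SK-MEL-28 (adjusted p = 0.000248). TP73, the p53 relative, rose in A375 by 1.04 ± 0.21 from a low level of 3.34 to 5.84 CPM.

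Of 15 cell cycle genes that p53 represses through p21, 12 (80%) were higher in A375, against 14.3% of all genes, and none lower. In SK-MEL-28, 1 was higher and 2 lower, which is 20% of the list against 19% of all genes. The interaction passed for 7 of the 15 (46.7%), all with a smaller or more negative response in SK-MEL-28, against 2.97% of all genes in that direction. MYBL2, a transcription factor of dividing cells, rose in A375 from 23.1, 20.8 and 17.8 to 42.9, 42.2 and 46.1 CPM, by 1.09 ± 0.092 (adjusted p = 5.11e-06), and gave 0.16 ± 0.081 in SK-MEL-28 (adjusted p = 0.193). CENPF, a kinetochore protein, rose in A375 by 0.76 ± 0.073, and CDC25C, the phosphatase that starts mitosis, by 0.71 ± 0.20 at 1.93 to 2.56 CPM under etoposide.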

How the data were processed

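PolyA-enriched RNA was sequenced by the authors in 12 libraries. The authors aligned reads with HISAT (GRCh38) and quantified genes with StringTie on an Ensembl annotation. They deposited raw, whole-number gene counts of each library, neither normalized nor pooled. How coverage became counts, and whether strand was used, is not given in the sources used here. The submitters' processing notes also name DESeq2. Rows without a gene name (0.00099% to 0.0053% of a library's counts) were left out. Depth was 28189501 to 32499337 counts per library, and precision is given by the spread between libraries.

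Tests used edgeR 4.0.16 in R 4.3.3: filterByExpr with a minimum count of 10, TMM, glmQLFit and glmQLFTest, with p adjusted by Benjamini and Hochberg's method across every tested gene. Each comparison was fitted on its own 6 libraries and the interaction on all 12. Standard errors were taken from the log2 fold change and its F statistic, as the ratio of the first to the root of the second. Calls used an adjusted p under 0.05, counted again with the fold change of 1.5. DESeq2 1.42.0 was an alternative, beside its size factors in edgeR, scaling by library totals, 2 other filters (1 count in any library, 10 counts in every library), 1 fit of all libraries, counts halved and rounded, the replicate number as a block and each library left out. The scripts were tested on simulated data. CPM in the text use TMM factors of all 12 libraries, and lengths and positions come from GENCODE 44.

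The genes, the comparison lists and the tests were chosen with earlier results of these data known. Values per library were given for genes past both thresholds in either rapamycin response, past the interaction, and for CDKN1A, MDM2, BAX and GDF15. Of the other lists, counts were given with up to 3 genes per direction past both thresholds, and MDM4. One regulator of the original list is not reported here. The drug sensitivity, protein and xenograft data were not analysed here.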

Additional observations from a re-analysis of the deposited data

Results flagged for a closer look

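The response to added rapamycin differed between the cell lines, by the interaction test over 12 libraries (edgeR, adjusted over all genes), for 7 of the 30 tested p53 target genes and for 4 of the other genes named. Each value is the log2 response in SK-MEL-28 minus that in A375 with its standard error. Positive differences were 0.51 ± 0.088 for MDM2, 0.36 ± 0.076 for ZMAT3, 0.35 ± 0.10 for EDA2R, 0.32 ± 0.084 for TP53INP1, 0.32 ± 0.080 for TIGAR, 0.31 ± 0.076 for PERP, 0.28 ± 0.067 for PLK2 and 0.29 ± 0.082 for MDM4, the partner of MDM2 (adjusted p = 0.047). Negative differences were -0.92 ± 0.12 for MYBL2 (adjusted p = 0.000365), -0.65 ± 0.14 for CENPF (adjusted p = 0.0102) and -0.61 ± 0.14 for CSF1 (adjusted p = 0.0168). For the 7 p53 target genes the adjusted p ran from 0.00286 for MDM2 to 0.0463 for EDA2R. Only MDM2 and ZMAT3 kept their call in every alternative setting, whereas the others lost it when single libraries were left out. The same check is not given here for MDM4, MYBL2, CENPF and CSF1. The groups hold 3 libraries each, too few to say which library, if any, is at fault.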

How the results depend on the processing

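Of the tests of single genes over the 5 comparisons and all alternatives, 2133 kept their side of the threshold, 93 lost a call and 24 gained one. With a call in either fit, 0 reversed their direction. A change of sign without a call in either fit was counted among the 2133. The count for the interaction fell from 7 to 2 with the filter of 1 count in any library, which tests more genes. The median log2 fold change of the 30 genes became -0.11 in A375 and -0.018 in SK-MEL-28 with library totals, which moved the median of all genes to -0.050 and -0.029, and in SK-MEL-28 this is a change of sign from 0.016. The interaction median became 0.11 with 10 counts in every library, and the median for SK-MEL-28 against A375 under etoposide + rapamycin 0.25 with 1 count in any library. For the other moved medians the cause was not tested.

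With each library left out in turn, the A375 response gave 14 to 17 genes, 1 to 2 past 1.5-fold, and medians of -0.13 to -0.060. The SK-MEL-28 response gave 6 to 9 genes (6 without etoposide + rapamycin replicate 3), 0 to 1 past 1.5-fold, and medians of -0.020 to 0.038, negative without etoposide + rapamycin replicate 2. The interaction gave 2 to 7 genes (2 without SK-MEL-28 etoposide replicate 2, 3 without A375 etoposide + rapamycin replicate 3, A375 etoposide replicate 2 or 3 or SK-MEL-28 etoposide replicate 3, and 4 without A375 etoposide + rapamycin replicate 1 or SK-MEL-28 etoposide + rapamycin replicate 2 or 3) and medians of 0.12 to 0.17. SK-MEL-28 against A375 gave medians of 0.14 to 0.18 under etoposide and 0.21 to 0.27 under etoposide + rapamycin.

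Libraries that share a replicate number did not deviate together over all genes (correlations of -0.030 to 0.021). Pairing by number was therefore not detected, but a shared deviation in few genes would not show in this check. With the replicate block, 15 genes passed in A375, 9 in SK-MEL-28, 5 in the interaction, and 22 and 21 between the cell lines. The block ended the calls of AEN in A375, of POLH in SK-MEL-28 and of EDA2R, PERP and TP53INP1 in the interaction, and added GDF15 in the interaction and BAX between the lines under etoposide.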
